A study of Homo sapiens with 4 samples.

Results

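The WNT target genes described here are AXIN2, SOX4, BMP4, MYC, CCND1, EPHB2, CD44, TCF7 and LEF1, measured in the colorectal cancer lines DLD-1 and HT-29 after exposure to 5-aza-2'-deoxycytidine. Their probes were taken as the spots whose symbol in the array's platform table is one of these 9 names, which gave 12 of the 30336 spots and 7 of the 9 genes. AXIN2 and CD44 had 3 probes each, MYC had 2, and SOX4, BMP4, CCND1 and LEF1 had 1 each. A further 2 probes, of TCF7 and LEF1, carried the gene only in the scanner files' own description and are given beside the 12. No probe was named for EPHB2. Each probe is reported on its own under the sequence accession that the platform table pairs with it.

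In colon cells WNT ligands keep beta-catenin from being destroyed, and beta-catenin then acts with the TCF and LEF factors on DNA to raise transcription of target genes. APC is a scaffold of the complex that destroys beta-catenin. Loss of APC function, which both DLD-1 and HT-29 are known to carry, leaves the targets active without ligand. The labels do not give the APC genotype, and the files do not measure it. AXIN2 feeds back on the pathway as a scaffold of the same complex, MYC and CCND1 drive growth and the cell cycle, and TCF7 and LEF1 are themselves DNA-binding partners of beta-catenin.

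Treated cells of each line were plated for 24 h and then kept for 96 h with 1 µM of the drug, a cytosine analogue that blocks DNA methyltransferases, so that CpG methylation is lost over cell divisions. Untreated cells of the same line, in the same medium, were their reference. Treated and untreated RNA of a line were hybridised together on 2 arrays with the dyes exchanged, which gave 4 arrays in all, and both arrays of a line together made up 1 replicate. The labels do not say whether the arrays came from separate cultures. The p-values rest on 1 spread between the 2 line means, pooled over all probes tested and possibly technical in part. They measure neither the spread between cultures nor that of a single probe.

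The sources used here do not settle which channel of the scanner files holds treated RNA on the dye-exchanged arrays, called array 2 of each line. The labels list treated RNA there as the first channel, in Cy3, while the files name no dye. An earlier reading of these files, with channel 2 as treated on all 4 arrays, is kept as the working reading, and the counts of probes past a threshold are also given in the labels' channel order, where the sign of each array 2 is turned. Across 18868 probes the working reading gave r = −0.45 between the log2 ratios of DLD-1 arrays 1 and 2. For HT-29 arrays 1 and 2 r was 0.00. With the median of each printed block of an array set to 0, r was −0.23 for DLD-1 and −0.14 for HT-29. The labels' order turns the sign of each of these r. Between the means of DLD-1 and of HT-29, r was 0.07 under the working reading and 0.21 in the labels' order. Which reading holds was not tested. Probes are not independent replicates, and all directions below carry this limit.

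Promoter windows of TCF7 and LEF1 are shown because the drug acts at CpG sites. They cover the 250 bases before a transcription start in RefSeq, build GRCh38.p14, with CpG dinucleotides in capitals. The first TCF7 window lies at chr5:134115363-134115612 on the + strand, the second at chr5:134123368-134123617 on the + strand, and the LEF1 window at chr4:108166302-108166551 on the − strand.
TCF7 first window: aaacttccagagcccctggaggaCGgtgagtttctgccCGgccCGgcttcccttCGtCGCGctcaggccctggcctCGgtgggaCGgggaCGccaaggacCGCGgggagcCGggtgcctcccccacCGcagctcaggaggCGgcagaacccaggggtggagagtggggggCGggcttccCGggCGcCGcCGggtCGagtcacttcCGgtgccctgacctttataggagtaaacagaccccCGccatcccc
TCF7 second window: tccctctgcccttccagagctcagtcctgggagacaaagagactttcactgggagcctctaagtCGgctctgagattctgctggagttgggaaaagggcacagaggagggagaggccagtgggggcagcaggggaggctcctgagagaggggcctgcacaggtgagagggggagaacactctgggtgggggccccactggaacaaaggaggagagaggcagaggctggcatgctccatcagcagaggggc
LEF1 window: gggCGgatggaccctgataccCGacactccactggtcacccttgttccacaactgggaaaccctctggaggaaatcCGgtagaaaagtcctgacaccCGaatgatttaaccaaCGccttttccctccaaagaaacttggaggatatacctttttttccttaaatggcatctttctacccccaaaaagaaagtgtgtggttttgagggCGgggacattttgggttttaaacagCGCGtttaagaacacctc
The first TCF7 window holds 22 CpG dinucleotides and the second 1. The LEF1 window holds 8, against a median of 11 over 35116 such windows. Both genes begin upstream of these windows, TCF7 at 134108218 and LEF1, on its − strand, at 108168932. Sequence before those outer starts is not shown. The core forms bound by TCF and LEF factors were searched on both strands, with CTTTGAA as the first word, CTTTGAT as the second word, CTTTGTA as the third word and CTTTGTT as the fourth word. At least 1 of them is in 12.0% of all windows and in 1 of 10 windows of the 6 member genes that the table holds. That match is in the second TCF7 window, where aacaaag begins 50 bases before the start, as the reverse complement of CTTTGTT. Methylation was not measured in these files, and the windows describe sequence alone.

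Of the 12 probes named by the platform table, 10 were above background in at least 1 channel on every array and entered the limma test over both lines. An AXIN2 probe rose under the working reading, and the other 9 did not pass, with mean log2 ratios of treated over untreated between −0.41 and 0.21 (limma adjusted p from 0.963 to 0.971). Of all 18868 probes tested, 0.143% rose and 0.0318% fell at an adjusted p under 0.05. An unadjusted p under 0.05 was found for that AXIN2 probe alone among the 10, and for 4.82% of all probes. None of the 10 passed in the labels' order (limma adjusted p from 0.426 to 0.993), where 0.715% of all probes passed, 0.668% higher and 0.0477% lower. There 2 of the 10, the same AXIN2 probe and CCND1, had an unadjusted p under 0.05, as did 10.9% of all probes. The median over the 10 probes was −0.22, against 0.0057 over all probes. Under the other reading it was −0.06, against 0.0088. Several of the 10 probes share a gene (AXIN2, MYC and CD44), so they are not separate members. Whether these medians depend on position in the printed blocks was not tested.

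Within a line no p can be given. None of the member probes was at least 2-fold higher or lower on both arrays of DLD-1 or of HT-29, under either reading, where DLD-1 had 10 of the 12 probes measured and HT-29 had 11. Among all measured DLD-1 probes, 0.113% were 2-fold higher and 0.00944% lower, and in HT-29 0.115% and 0.0132%. These shares were, in the labels' order, 0.368% and 0.0142% in DLD-1, and 0.305% and 0.00442% in HT-29. The plot of the probes on the 4 arrays shows how widely the 2 arrays of a line differed for most members.

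**Figure D1:**
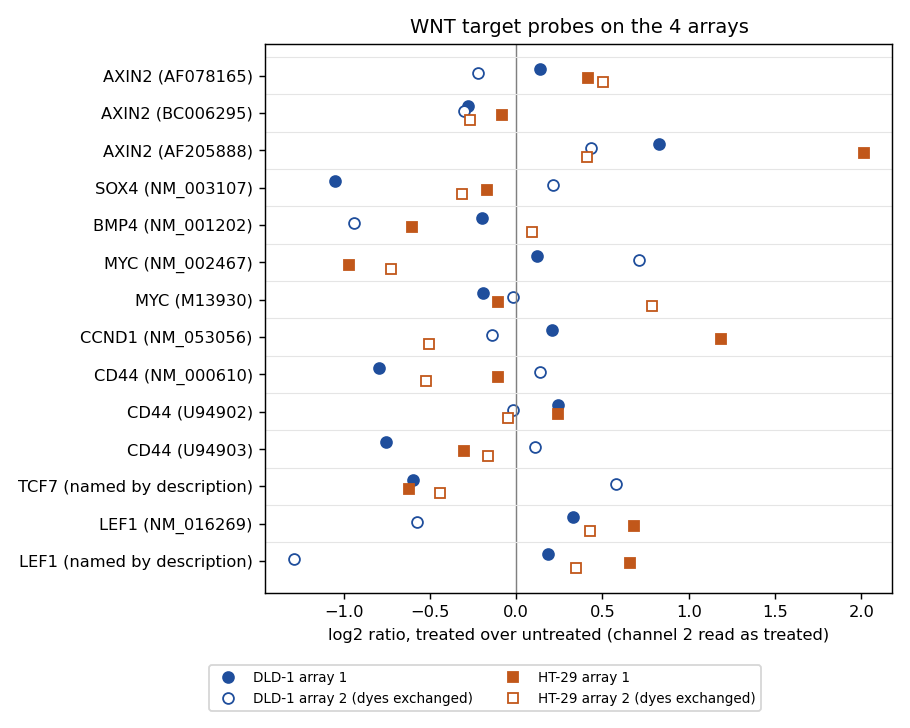
Log2 ratio of treated over untreated RNA (x axis) for each WNT target probe (rows) on each array, with channel 2 read as treated; each point is 1 array, open symbols are the dye-exchanged arrays, and there are no error bars. The AXIN2 probe AF205888 lies above 0 on all 4 arrays and reaches 2.02 on HT-29 array 1, while MYC NM_002467 lies above 0 on the DLD-1 arrays and below 0 on the HT-29 arrays.

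AXIN2, the feedback scaffold that is often used as a direct readout of WNT activity, was covered by 3 probes that did not move together. The probe of AF205888 had a normalised log2 signal, background-corrected and loess-adjusted, of 11.48 and 10.67 in treated DLD-1 cells, against 10.65 and 10.24 in untreated DLD-1 cells. In HT-29 it had 12.48 and 11.18 in treated cells, against 10.46 and 10.77 in untreated cells. Treated signal was the higher on each array, and treated HT-29 RNA on array 1 was the brightest. Treated and untreated values overlapped in both lines in the labels' order, and in neither line under the working reading. In DLD-1 the gap was narrow and lay between arrays, 10.67 treated on array 2 against 10.65 untreated on array 1. The share of all probes without such overlap was not counted, so no weight is given to its absence. The log2 ratios were 0.83 and 0.43 in DLD-1 (0.63 ± 0.28, SD over 2 arrays) and 2.02 and 0.41 in HT-29 (1.21 ± 1.13). The mean over the 2 lines was 0.92 (SE 0.221, limma adjusted p = 0.0214), and the probe was positive on 4 of 4 arrays, as were 4.53% of all probes tested.

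This call is bound to the reading and to single arrays. Reading the labels' order, the mean was 0.50 (limma adjusted p = 0.438), since the sign of both array 2 values turns. With block medians on each array moved to 0 it was 0.78 (adjusted p = 0.472). Across all settings tried the limma adjusted p ran from 0.00166 to 1.00, with means from 0.50 to 1.32, all positive. Leaving out DLD-1 array 1 gave a mean of 0.82 (limma adjusted p = 1.00), leaving out HT-29 array 1 gave 0.52 (0.963) and leaving out HT-29 array 2 gave 1.32 (0.803), so the call ended each time. Without DLD-1 array 2 the probe passed with 1.02 (limma adjusted p = 0.00166).

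Neither of the other AXIN2 probes passed the test or was higher in treated cells on 4 of 4 arrays. The probe of AF078165 had a log2 signal of 11.00 and 9.73 in treated DLD-1 cells, against 10.86 and 9.95 in untreated ones, and of 10.21 and 11.25 in treated HT-29 cells, against 9.79 and 10.74 in untreated ones. Its log2 ratio was −0.04 ± 0.25 in DLD-1 and 0.46 ± 0.06 in HT-29 (limma mean 0.21, adjusted p = 0.963). Within arrays, the ratios were 0.14 and −0.22 in DLD-1, and 0.42 and 0.51 in HT-29, so treated signal was the higher on both HT-29 arrays. With block medians set to 0 the HT-29 ratios were 0.20 and 0.0039. Across arrays, treated and untreated signals overlapped in both lines, a comparison that leaves the pairing within an array aside. The probe of BC006295 had 11.85 and 11.48 in treated DLD-1 cells, against 12.13 and 11.78 in untreated ones, and 12.51 and 10.42 in treated HT-29 cells, against 12.59 and 10.69 in untreated ones. Treated signal was slightly the lower on 4 of 4 arrays, as it was for 3.31% of all probes, yet the mean of −0.23 did not pass (limma adjusted p = 0.963) and was 0.05 in the labels' order. The probes of AF205888 and BC006295 differed by 1.15 in mean log2 ratio. With the 3 probes averaged, a step chosen after the values were seen, AXIN2 had a mean of 0.30 (limma adjusted p = 0.988). Which transcripts each probe matches was not tested.

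**Figure D2:**
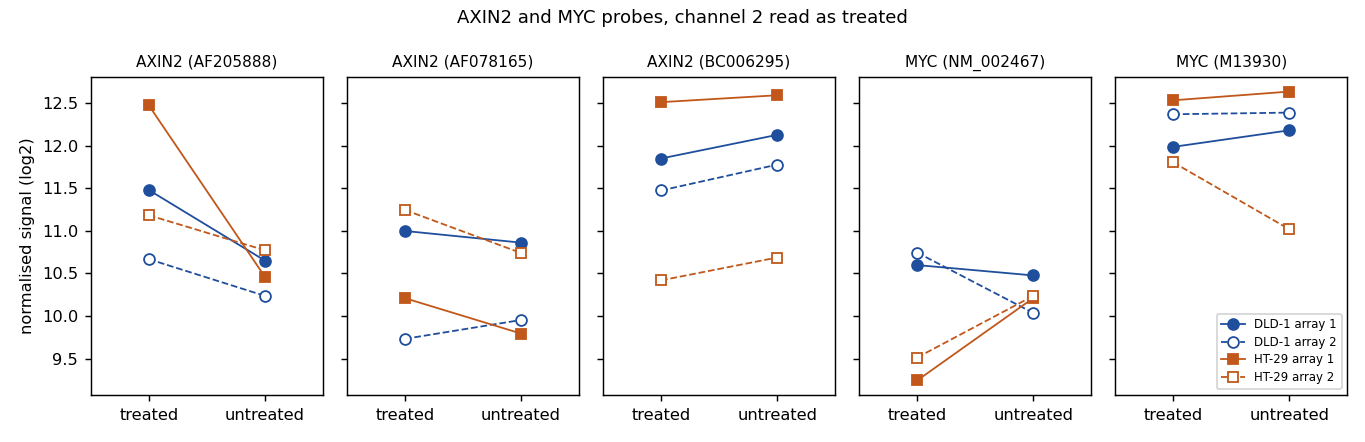
Normalised log2 signal (y axis) in treated and untreated RNA (x axis) for the 3 AXIN2 and 2 MYC probes; each line joins the 2 channels of 1 array, with channel 2 read as treated, and dashed lines are the dye-exchanged arrays. AXIN2 AF205888 is higher in treated RNA on all 4 arrays, by 2.02 on HT-29 array 1, whereas AXIN2 BC006295 is lower in treated RNA on all 4.

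MYC, a transcription factor of growth and ribosome production and a classic beta-catenin target, had probes that differed between the lines and from each other. The probe of NM_002467 had a log2 signal of 10.60 and 10.75 in treated DLD-1 cells, against 10.48 and 10.04 in untreated ones. In HT-29 it had 9.24 and 9.51 in treated cells, against 10.21 and 10.24 in untreated cells. Treated signal was thus the higher on both DLD-1 arrays and the lower on both HT-29 arrays. Treated and untreated values overlapped in both lines in the labels' order, and in neither line under the working reading. The share of all probes without overlap was not counted, so no weight is given to it. The log2 ratio was 0.42 ± 0.42 in DLD-1, or 1.33-fold, and −0.85 ± 0.17 in HT-29, or 1.80-fold lower. Of all probes, 7.41% had both arrays of a line on opposite sides of 0 from those of the other line, and 12% did in the labels' order. The mean over both lines was −0.22 (limma adjusted p = 0.963), and the labels' order gave −0.29 in DLD-1 and −0.12 in HT-29. Without DLD-1 array 1 the working mean over both lines was −0.068, and without DLD-1 array 2 it was −0.36.

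The other MYC probe, of M13930, did not repeat that pattern. It had 11.99 and 12.37 in treated DLD-1 cells, against 12.18 and 12.39 in untreated ones, and 12.54 and 11.81 in treated HT-29 cells, against 12.64 and 11.02 in untreated ones. Its log2 ratio was −0.11 ± 0.12 in DLD-1 and 0.34 ± 0.63 in HT-29 (limma mean 0.12, adjusted p = 0.971). Its mean was −0.27 in the labels' order. The HT-29 ratios of the 2 probes were 1.19 apart, with NM_002467 the lower.

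A spot that the files describe as exon 3 of c-myc, without a platform symbol and picked after its values were seen, had log2 ratios of 1.31 and −1.68 in DLD-1 and 2.04 and −0.56 in HT-29. It was positive on array 1 and negative on array 2 of each line. It did not pass under the working reading (limma mean 0.28, adjusted p = 0.963) and rose in the labels' order (mean 1.40, limma adjusted p = 2.53e-05). Neither MYC probe of the platform table moved this way.

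CCND1 encodes cyclin D1, which starts the cell cycle by activating CDK4 and CDK6. Its log2 ratios were 0.21 and −0.14 in DLD-1 and 1.19 and −0.51 in HT-29. The sign changed between the arrays of each line, and HT-29 array 1 stood apart. Line means were 0.04 ± 0.24 in DLD-1 and 0.34 ± 1.20 in HT-29, with 0.19 over both lines (limma adjusted p = 0.963). In the labels' order CCND1 was positive on 4 of 4 arrays, as were 8.65% of all probes, at 0.17 ± 0.05 for DLD-1 and 0.85 ± 0.48 for HT-29, and its mean of 0.51 did not pass either (limma adjusted p = 0.426). No member probe was negative on 4 of 4 arrays in that order, against 7.28% of all probes.

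SOX4, an HMG-box transcription factor of progenitor cells, had log2 ratios of −1.05 and 0.21 in DLD-1 and −0.17 and −0.31 in HT-29. Its mean was −0.33 (limma adjusted p = 0.963), and −0.28 in the labels' order. DLD-1 array 1 was low, while DLD-1 array 2 lay above 0, and the mean was −0.015 without the first of these and −0.65 without the second. BMP4, a secreted ligand of the TGF-beta family, had −0.20 and −0.94 in DLD-1 and −0.61 and 0.09 in HT-29. That mean, −0.41, was the lowest of the member probes and did not pass (limma adjusted p = 0.963). It was 0.01 in the labels' order, so no direction can be given for BMP4.

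CD44 encodes the hyaluronan receptor, a surface protein of colon crypt cells and of many carcinomas. The probe of NM_000610 had log2 ratios of −0.79 and 0.14 in DLD-1 and −0.10 and −0.52 in HT-29, and the probe of U94903 had −0.76 and 0.11 in DLD-1 and −0.30 and −0.16 in HT-29. Treated signal of U94903 on DLD-1 array 1 was not above background, so its −0.76 is uncertain. The means were −0.32 and −0.28 (limma adjusted p = 0.963 for both) and of −0.13 and −0.25 in the labels' order. Without DLD-1 array 1 the means were −0.087 and −0.062, and without DLD-1 array 2 they were −0.55 and −0.49. The medians of their printed blocks on DLD-1 array 1 were −0.55 and −0.41. With block medians set to 0 the means were −0.15 and −0.11. The third probe, of U94902, was above background in neither channel on both dye-exchanged arrays and was not tested.

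TCF7 and LEF1 encode HMG-box factors that carry beta-catenin to DNA, and their genes are also WNT targets. The TCF7 probe, named by description, had log2 ratios of −0.60 and 0.58 in DLD-1 and −0.62 and −0.44 in HT-29. Its mean was −0.27 (limma adjusted p = 0.963), and −0.34 in the labels' order (adjusted p = 0.647). Treated signal on DLD-1 array 1 and untreated signal on HT-29 array 1 were not above background, so the ratios −0.60 and −0.62 are uncertain. With block medians set to 0 the TCF7 ratios were −0.01 and 0.18 in DLD-1 and −0.20 and −0.28 in HT-29. The LEF1 probe named by description had 0.19 and −1.29 in DLD-1 and 0.66 and 0.34 in HT-29, with a mean of −0.02 (limma adjusted p = 0.993) and of 0.45 in the labels' order (adjusted p = 0.499). For that probe DLD-1 array 2 was low, and both HT-29 arrays lay above 0. With block medians set to 0 the HT-29 ratios were 0.51 and 0.03. The log2 ratio that the authors deposited for HT-29 array 2, channel 2 over channel 1, was −0.17, so a rise on that array is uncertain. The platform-named LEF1 probe of NM_016269 was above background in neither channel on DLD-1 array 1 and was not tested, and its untreated signal on HT-29 array 1 was not above background either. Both channels were above it on the dye-exchanged arrays alone, at −0.58 for DLD-1 and 0.43 for HT-29.

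**Figure D3:**
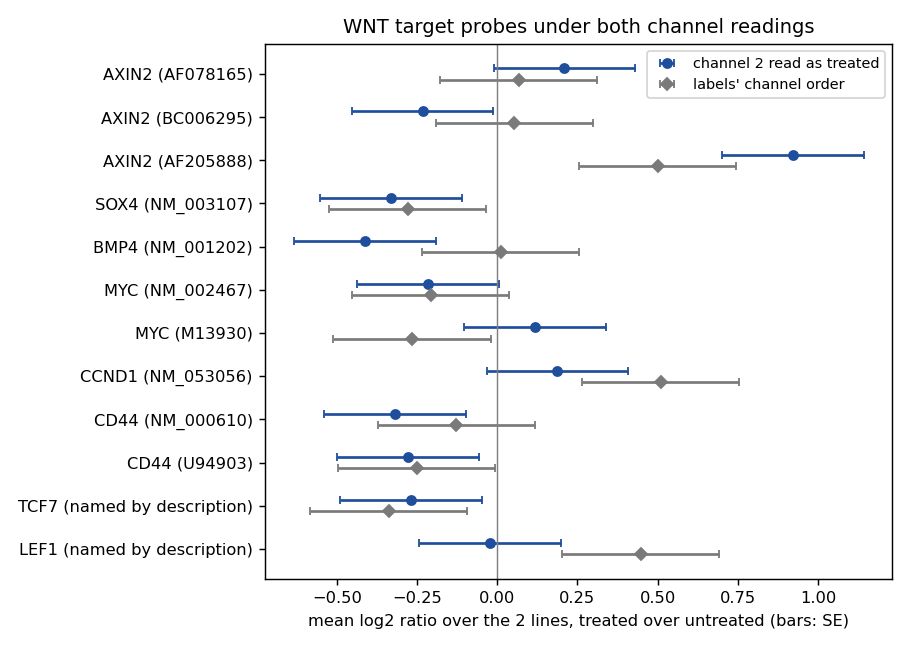
Mean log2 ratio of treated over untreated RNA over the 2 lines (x axis) for each tested WNT target probe (rows), with channel 2 read as treated on all arrays (circles) and in the labels' channel order (diamonds); bars are the SE of the limma fit. In the labels' order AXIN2 AF205888 lies at 0.50 and CCND1 at 0.51. SOX4, MYC NM_002467, both CD44 probes and TCF7 lie below 0 under both readings, which share the array 1 values, but none passed the test. With block medians set to 0, not plotted, the working means were −0.14 for SOX4, −0.12 for MYC NM_002467 and −0.08 for TCF7. Those of CD44 were −0.15 (NM_000610) and −0.11 (U94903). In the labels' order SOX4 was then 0.031 and CD44 NM_000610 0.033, while the others stayed below 0.

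Spot levels, the mean log2 signal of both channels, do not depend on which channel is treated. Levels of different probes cannot be compared with each other, so each is set between the lines. CD44 NM_000610 had 10.81 ± 0.24 in DLD-1 and 11.84 ± 0.35 in HT-29 (SD over 2 arrays), 2.05-fold lower in DLD-1 with no overlap, as were 5.16% of all probes by at least 2-fold. No member was at least 2-fold higher in DLD-1 without overlap, against 8.01% of all probes. The probe of U94903 was 2.17-fold lower in DLD-1, but its arrays overlapped. MYC NM_002467 had 10.46 ± 0.10 in DLD-1 and 9.80 ± 0.10 in HT-29, 1.58-fold higher in DLD-1. BMP4 had 12.69 ± 0.27 in DLD-1 and 12.06 ± 0.26 in HT-29, 1.55-fold higher in DLD-1. LEF1 as named by description had 12.39 ± 0.38 in DLD-1 and 13.02 ± 0.51 in HT-29, 1.55-fold lower in DLD-1. For these 3 probes too the arrays of the lines did not overlap. Non-overlap was common over all probes, with 19.3% higher and 12% lower in DLD-1. The arrays of DLD-1 and HT-29 overlapped for the 3 AXIN2 probes, SOX4, CCND1, TCF7, MYC M13930, CD44 U94902 and LEF1 NM_016269. No test was made, since each line is 1 replicate.

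**Figure D4:**
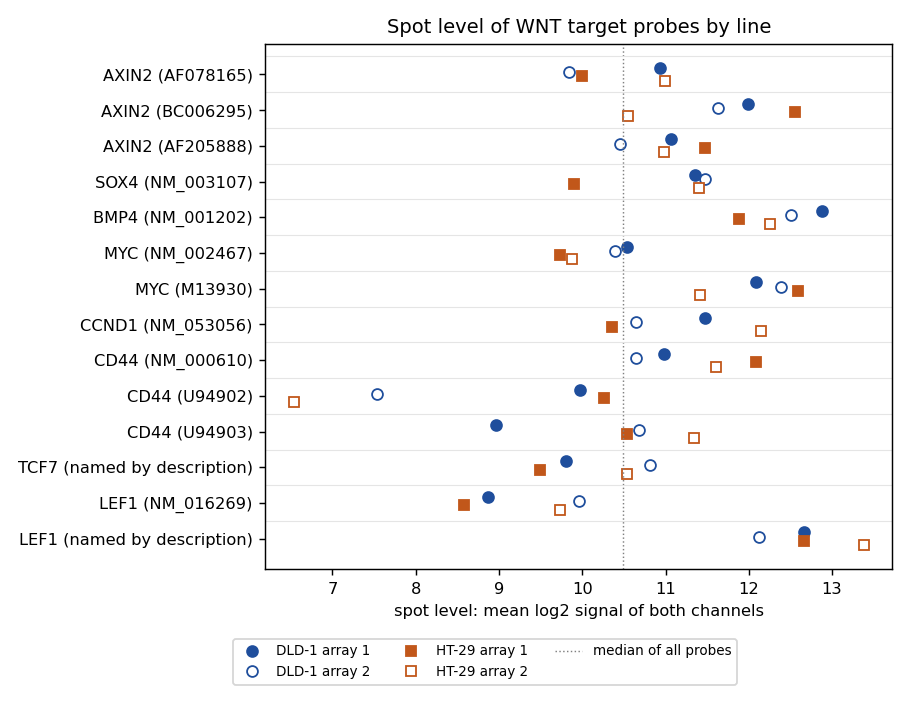
Spot level, the mean log2 signal of both channels (x axis), of each WNT target probe (rows) on each array; each point is 1 array and the dotted line is the median of all probes. Both HT-29 arrays lie above both DLD-1 arrays for CD44 NM_000610, and below them for MYC NM_002467 and BMP4.

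The wider pathway was described with 110 genes in 6 lists, of which 85 had a probe and 56 were tested with 62 probes. None rose or fell in the limma test under either reading, and none of the 73 probes measured in each line was 2-fold higher or lower on both of its arrays. Their median log2 ratio was 0.01, against 0.0057 over all probes, with a range from −0.52 to 0.33. Among 9 tested probes of WNT ligands and their secretion the median was −0.03, with WLS, the carrier that takes WNT proteins to the surface, at −0.36 and WNT16 at −0.25. Among 13 receptor probes it was −0.09, with the Frizzled receptors FZD3 at −0.30 (NM_017412) and −0.11 (AJ272427) and FZD6 at −0.25.

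Among 11 probes of the destruction complex and cytoplasm the median was 0.10. DVL3, a Dishevelled protein that relays the receptor signal, had a mean of −0.52 under the working reading, with line means of −0.60 for DLD-1 and −0.45 for HT-29, and did not pass (limma adjusted p = 0.782). Its mean was 0.02 in the labels' order, so no direction can be given. APC itself had a mean of −0.24. The 9 probes of TCF partners and co-regulators had a median of 0.08, with the acetyltransferase EP300 at 0.25 and the 3 tested probes of the corepressor TLE4 at 0.10, 0.10 and −0.02. Only 3 probes of feedback inhibitors could be tested, with NKD2 (AF358137) at 0.16 and NKD1 at −0.14. The 18 probes of other WNT targets had a median of 0.00, with the cell cycle inhibitor CDKN1A at −0.36 and 1 probe of the urokinase receptor PLAUR (X74039) at 0.33, while its other probe (NM_002659) was at −0.07. The means of NKD2 (AF358137) and PLAUR (NM_002659) also turned in the labels' order, to −0.32 and 0.10. TCF7L2 stands in 2 of the lists.

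**Figure D5:**
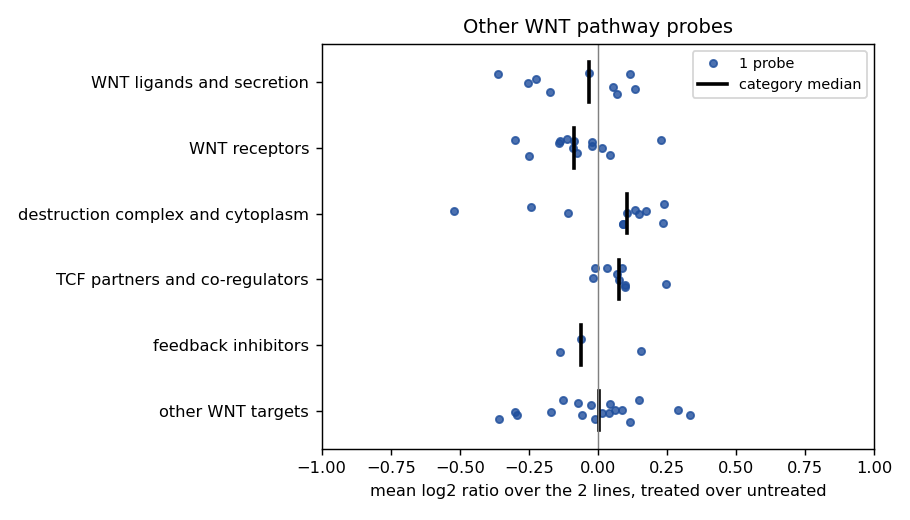
Mean log2 ratio of treated over untreated RNA over the 2 lines (x axis) for the tested probes of the other WNT pathway genes, by list (rows); each point is 1 probe with channel 2 read as treated, and the black bar is the list's median. All points lie between −0.52 and 0.33, and the list medians lie between −0.09 and 0.10.

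Among the probes whose ratios lay nearest to AXIN2 BC006295 over the 4 arrays were those of SH3GL1, POLR3F, TIFA and F7, at Euclidean distances between 0.12 and 0.16. A pattern this close to 0 on every array is shared by many probes, and 571 of 10295 named probes lay within a distance of 0.5.

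On the 4 arrays, 19525 to 22946 of 29591 probes were above background in both channels. The median share of all probes above background was 76.2% for DLD-1 and 78.2% for HT-29. Position in the 48 printed blocks accounted for 21.6% to 50.8% of the variance of the log2 ratios. Of 13 probes of colon epithelial markers, 10 in DLD-1 and 12 in HT-29 were above background in all 4 channels of the line. The epithelial adhesion protein gene EPCAM had a level of 14.79 for DLD-1 and 14.20 for HT-29. Those that fell short were CDX1, LGALS4 and a KRT18 probe (L32537) in DLD-1, and CDX1 in HT-29. Of 8 probes of lymphocyte and myeloid markers, 8 and 5 were also above background, among them in both lines CD3E, a chain of the T cell receptor complex, at 11.29 for DLD-1 and 11.98 for HT-29. PTPRC, which encodes the leukocyte protein CD45, was above background in 4 of 4 channels in DLD-1 and 2 of 4 in HT-29. Of 9 probes of fibroblast markers 8 and 6 were above background in all 4 channels, and of 4 endothelial probes 3 and 2. Such signal was thus not particular to the epithelial list. Signal above background is used here as a detection rule and not as a measure of transcription. A change in the share of cells that express a gene and a change in its RNA per cell cannot be told apart in such bulk samples.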

How the data were processed

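Total RNA of treated and untreated cells was amplified as amino allyl RNA and coupled to Cy3 or Cy5, per the labels' protocols. The deposited scanner files hold the intensity and local background of both channels per spot, and a log2 ratio that the authors computed; the scanner and its software are not stated in these sources. The series table that was deposited repeats those log2 ratios with the opposite sign.

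Ratios were recomputed with R 4.3.3 and limma 3.58.1 by normexp (offset 50) and loess within each array, with 696 control spots and bad spots given no weight; 49 probes marked bad on some array were left out. A channel was above background where intensity exceeded local background by more than 2 background SD, and a probe was tested where at least 1 channel was so on all 4 arrays. The mean of both arrays stood for a line, and the moderated two-sided test of limma (lmFit, eBayes) set both line means against 0, with p-values adjusted by Benjamini-Hochberg over 18868 probes. The fit took 1 variance for all probes (SE 0.221, or 0.245 in the labels' order), and an exact sign-flip test of 2 means cannot go below 0.5. Alternatives were the labels' channel order, block medians, background correction, normalization, the deposited ratios, detection filters and leaving out arrays. Steps were tested on simulated data.

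Genes were named by the platform table (14200 probes with 1 symbol, 447 with several) or the files' descriptions (1394), and 13599 had no name. A CD44 probe that also carries SLC1A2 was left out. Every member probe is named, and in each pathway list the 2 genes with the largest mean ratio. The members and lists were chosen with earlier results of these data known. Precision is limited by how few arrays there are. A gene that the rule for likeness to AXIN2 also picks is not reported here.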

Additional observations from a re-analysis of the deposited data

Results flagged for a closer look

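MYC (NM_002467) stood out because both DLD-1 arrays were higher in treated cells and both HT-29 arrays lower, under the reading with channel 2 as treated. The DLD-1 mean minus the HT-29 mean of its log2 ratio was 1.26. This difference between the lines was not tested, 7.41% of all probes showed such opposite signs (12% in the labels' channel order), the probe of M13930 did not show it, and in that order both lines had negative means.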

How the results depend on the processing

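Over both lines 33 probes passed. That count was 135 in the labels' channel order, 4 with block medians set to 0, 5 with plain background subtraction, 56 with no detection filter, and 1 (without HT-29 array 2) to 874 (without DLD-1 array 2) with an array left out; 3, 4, 2 and 23 of the 33 were among those of the first 4 settings. The 1 member probe, AXIN2 (AF205888), gave 0 under each of those 4 settings and with the probes of a gene averaged, an alternative chosen after seeing the data, and 0 to 1 with an array left out. It still passed with median centring, the deposited ratios and both channels above background. The pathway lists had 0 probes past the test, 1 with no detection filter, NKD2 (BC012176), and 0 with any array left out. Probes at least 2-fold on both DLD-1 arrays numbered 26, against 81 in the labels' order, 69 with plain subtraction, 71 with no filter, and 9 with both channels above background. For HT-29 they numbered 29, against 70, 87, 56 and 17 in the same order, and 16 with block medians set to 0. With an array of the line left out, the count is of probes 2-fold on the single array that remains, 978 and 1628 for DLD-1 and 1018 and 1367 for HT-29, which is not comparable with a count on both.

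Mean log2 ratios of the members kept their direction in 119 of 128 recomputed values. This tally overstates how far direction was tried. Settings that change only the detection filter keep the same ratios, so their values could not turn. Settings with an array left out share the remaining arrays with the working means. In the labels' order BMP4 turned to 0.011, LEF1 as named by description to 0.45, AXIN2 (BC006295) to 0.053 and MYC (M13930) to −0.27. With an array left out, TCF7 ranged from −0.56 to 0.025, LEF1 from −0.39 to 0.34, CCND1 from −0.24 to 0.61 and MYC (M13930) from −0.10 to 0.34; SOX4 (−0.65 to −0.015), CD44 NM_000610 (−0.55 to −0.087), CD44 U94903 (−0.49 to −0.062) and MYC NM_002467 (−0.36 to −0.068) kept their sign. The cause of these changes was not tested. Treated and untreated RNA share every array, so each log2 ratio is itself a paired comparison. No further pairing was possible because each line is 1 replicate. Signal near background limits CD44 (U94902, U94903), LEF1 (NM_016269) and TCF7. Untreated signal of SOX4 and AXIN2 (AF078165) on HT-29 array 1 passed narrowly. It was 330 and 262 over background, with background SDs of 164 and 122. On that array SOX4 had −0.17, against 0.13 in the deposited ratios, and AXIN2 (AF078165) had 0.42, against 0.99.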

Other observations

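NKD2, a feedback inhibitor of WNT signalling, had a second probe (BC012176) with log2 ratios of treated over untreated of 1.76 and 2.38 on the DLD-1 arrays and of −0.23 and 0.15 on the HT-29 arrays. It was above background in 1 of 8 channels and was therefore not tested, and it was picked after its values were seen. The tested NKD2 probe (AF358137) had 0.12 and −0.05 in DLD-1.

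The 2 spots described as cyclin D1 fused to immunoglobulin heavy chain sequence, which the rule does not name as CCND1, had limma means of 0.05 and 0.41 (adjusted p = 0.984 and 0.963). Neither passed in the labels' order.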
